A study of Mus with 6 samples.

Results

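The genes described are those that encode the main thiol and peroxide defenses of the cell, namely peroxiredoxins, glutathione peroxidases, glutathione S-transferases, thioredoxins and their reductases, superoxide dismutases, catalase, and the enzymes and regulators around them. The rule uses names and no measured value, although it was set with earlier results of these data known. Gene names starting with Prdx, Gpx, Gst or Txn (Txnip excepted), together with Sod1, Sod2, Sod3, Gclc, Gclm, Gsr, Gss, Cat, Nqo1, Hmox1, Srxn1, Keap1 and Nfe2l2, gave 49 members of the 10995 genes listed. Nqo1 and Sod3 were not among the genes listed, so they could not be analysed here. Naive CD4+ T cells from the spleen of wild-type C57BL/6 mice were activated for 3 days with anti-CD3 (5 μg/mL), anti-CD28 (2 μg/mL) and IL-2 (100 U/mL), together with a goat antibody that neutralizes VEGF-B (anti–VEGF-B) or with IgG of normal goats, each at 1 μg/mL. The medium of both groups held β-mercaptoethanol (55 μM), a thiol-reducing agent, and L-glutamine (2 mM). RNA-Seq was performed on 3 libraries for each treatment. The labels do not say whether these libraries came from separate cultures or animals, so that the p values measure only the spread between these libraries, which may be technical.

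A T cell that is activated through its receptor produces more superoxide and hydrogen peroxide, mostly from mitochondria. Superoxide dismutases turn superoxide into hydrogen peroxide, which catalase, peroxiredoxins and glutathione peroxidases then remove. Peroxiredoxins are reduced again by thioredoxin, which takes its electrons from NADPH through thioredoxin reductase, while glutathione peroxidases use glutathione, a tripeptide made by glutamate-cysteine ligase and glutathione synthetase and recycled by glutathione reductase. The transcription factor NRF2, encoded by Nfe2l2, is held back by KEAP1 and is known to activate many of these genes. Activated T cells need glutathione to sustain growth.

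The values were taken as FPKM, reads per transcript length and per library size, from how the table was made and from their not being whole numbers, since the table itself names no unit. Ranks, sums and ratios across genes rest on that reading. Summed FPKM of the 10995 genes ran from 262045 to 276527 in the anti–VEGF-B libraries and from 260058 to 276622 in the IgG libraries. Genes listed at 0 numbered 91, 59 and 76 with anti–VEGF-B and 36, 37 and 37 with IgG. The cause of this difference was not tested. All 8 markers listed for CD4+ T cells were present, and their summed FPKM ran from 544 to 585 with anti–VEGF-B and from 576 to 692 with IgG. Among them Cd3e, Cd5 and Il2ra, the gene of the high-affinity IL-2 receptor chain, were called lower with anti–VEGF-B (log2 fold change -0.51, -0.38 and -0.97). The others were not called: Cd3g (-0.43), Cd3d (0.10), Cd4 (0.034), Cd28 (0.12) and Lck (0.0041). Of all genes tested, 23.8% were called lower. The part of these markers in the other results was not tested. Of 5 myeloid markers 3 were in the table, and their sum ran from 3.95 to 5.11 FPKM with anti–VEGF-B and from 4.60 to 19.8 with IgG, the highest being IgG replicate 3. The B cell (1 of 4 in the table), NK cell (1 of 3), platelet (1 of 3) and CD8 (2 of 2) markers summed to under 5 FPKM in each library, and none of 6 erythroid markers had a row. The test was limma on log2(FPKM + 1), run on the 8816 genes whose mean reached 1 FPKM, and a gene was called at a Benjamini-Hochberg adjusted p under 0.05. Adding 1 shrinks the log2 fold change of a gene with few FPKM. In bulk RNA, fewer cells of a type and less RNA per cell cannot be told apart.

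Of the 49 members, 41 were tested, and 9 were called. Nfe2l2, Gclc, Gpx1, Prdx1, Txnrd1, Txndc5 and Gstt2 were lower with anti–VEGF-B, and Prdx5 and Prdx6 were higher. These 7 of 41 lower members are 17.1%, against 23.8% of all genes tested that were lower, and the 2 higher members are 4.88%, against 4.87% of all genes. The share of members called was therefore near or under the background in both directions. The median log2 fold change of the 41 members was -0.12, against -0.15 for all genes tested, and 0.079 after each library was centred on its median. Quantile normalization gave 4 members lower and 3 higher, median centring 4 lower and 8 higher (Prdx5, Prdx6, Prdx2, Hmox1, Gsr, Gss, Gstp3 and Txnl1), and scaling to Actb 5 lower and 2 higher. Over all genes these scalings gave 913 lower and 880 higher, 807 and 1365, and 1309 and 365, against 2099 and 429 as deposited. Without anti–VEGF-B replicate 3, or without IgG replicate 2, 4 members were lower (695 and 1101 over all genes), and without IgG replicate 1, 4 were higher (396 over all genes).

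The 3 anti–VEGF-B values lay below the 3 IgG values for 17 of the 41 members (41.5%, against 38.5% of all genes) and above them for 7 (17.1%, against 10.5%). In the remaining 17 members the groups overlapped. The calls for Nfe2l2, Gclc, Gpx1, Prdx1, Prdx5 and Prdx6 were made under each of 3 other scalings between libraries and in each of the 6 fits that left out 1 library. The calls for Txnrd1, Txndc5 and Gstt2 were not. The plot of log2 fold changes by role shows the 9 called genes spread over 6 of the 7 roles.

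**Figure D1:**
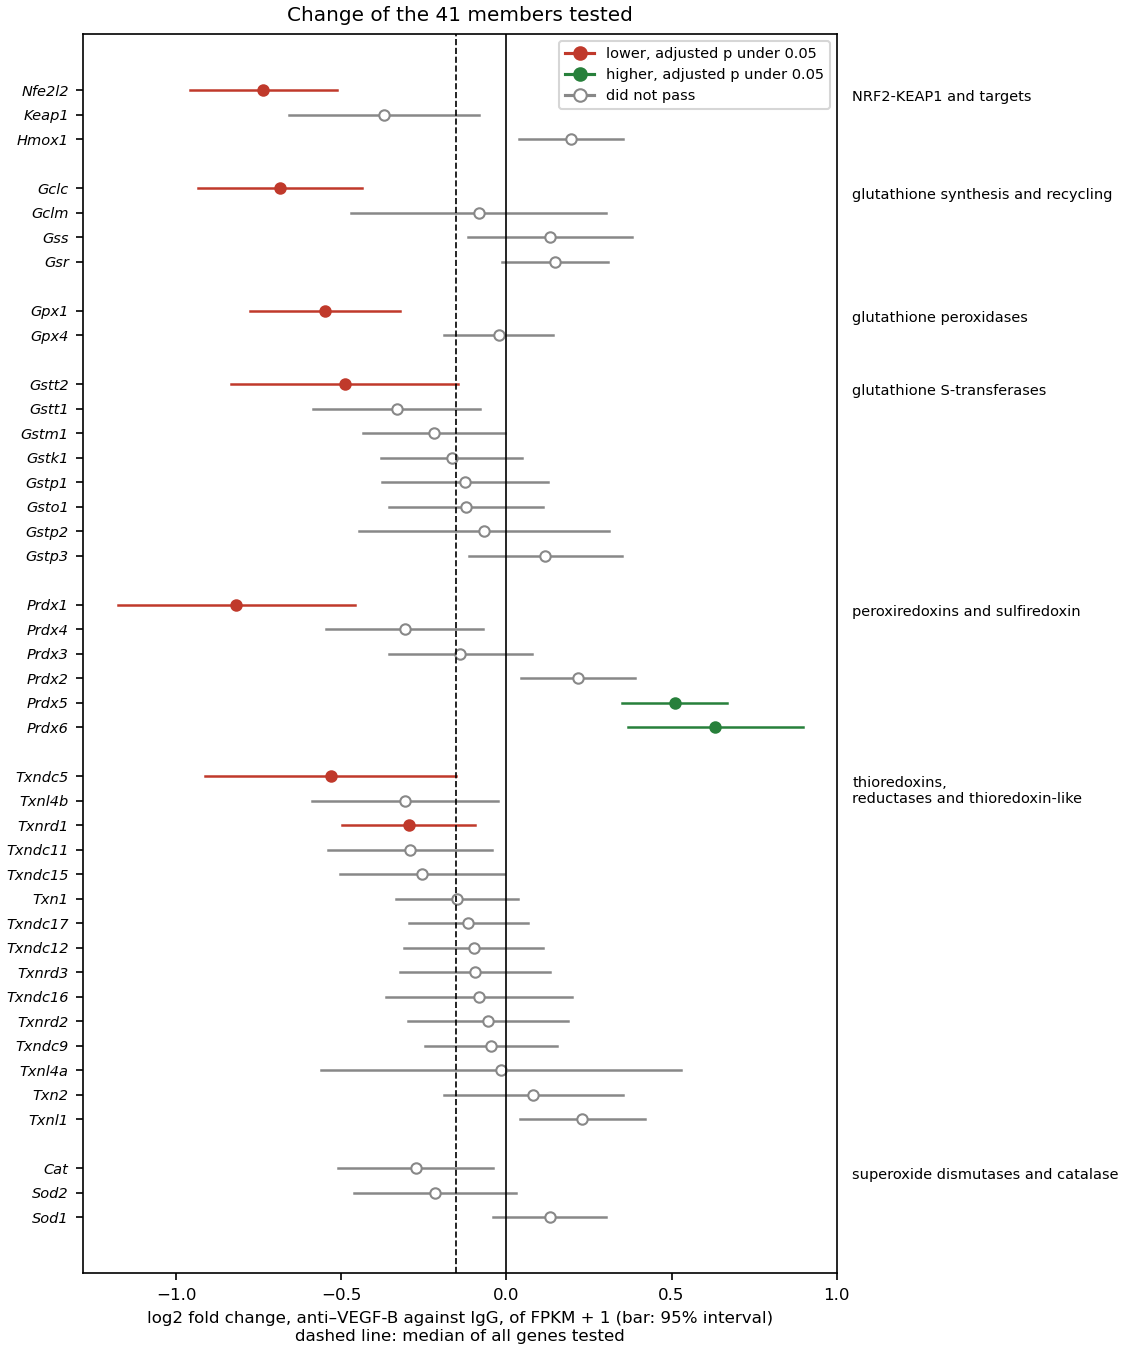
log2 fold change of each of the 41 members tested, anti–VEGF-B against IgG, on the log2(FPKM + 1) scale (x axis), grouped by role (y axis). Points are estimates from limma, bars are 95% intervals, filled points are members called at an adjusted p under 0.05, and the dashed line is the median of all genes tested (-0.15). Prdx1 (-0.82) and Prdx6 (0.63) lie at the ends, in the same family.

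The members covered a wide range of abundance. Sod1, the cytosolic copper-zinc superoxide dismutase, ranked 75th of the 10995 genes by mean FPKM. It alone made up 42.7% to 45.3% of the summed FPKM of the 49 members in the IgG libraries and 46.3% to 47.1% in the anti–VEGF-B libraries. Txn1, which encodes cytosolic thioredoxin, followed at rank 293, and Txnl1, a thioredoxin-like protein bound to the proteasome, at rank 380. A mean of at least 10 FPKM was reached by 20 members. The 8 members under a mean of 1 FPKM were Srxn1, Gpx7, Gsta4, Gstcd, Gstm4, Gstt3, Gstt4 and Gstz1.

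The summed FPKM of all 49 members was 1488, 1444 and 1512 with anti–VEGF-B and 1507, 1407 and 1384 with IgG, and the groups overlapped. Within this total, the peroxiredoxins and sulfiredoxin summed to 190, 187 and 200 FPKM with anti–VEGF-B, above the 178, 161 and 162 with IgG. The superoxide dismutases and catalase summed to 707, 694 and 725 with anti–VEGF-B, also above the 691, 622 and 645 with IgG. Most of this sum was Sod1, at 689, 680 and 710 with anti–VEGF-B and 673, 600 and 626 with IgG. Sod1 was not called, and its log2 fold change was -0.019 after quantile normalization. Sod2 and Cat were lower in each anti–VEGF-B library than in each IgG library. The glutathione peroxidases summed to 67.7, 62.2 and 64.2 with anti–VEGF-B, below the 79.6, 81.1 and 73.1 with IgG. For the thioredoxin group (330, 310 and 329 against 350, 330 and 319) and the glutathione S-transferases (80.5, 74.1 and 78.7 against 86.8, 92.6 and 73.8), the groups overlapped. They also overlapped for glutathione synthesis and recycling, and for Nfe2l2, Keap1 and Hmox1 together.

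**Figure D2:**
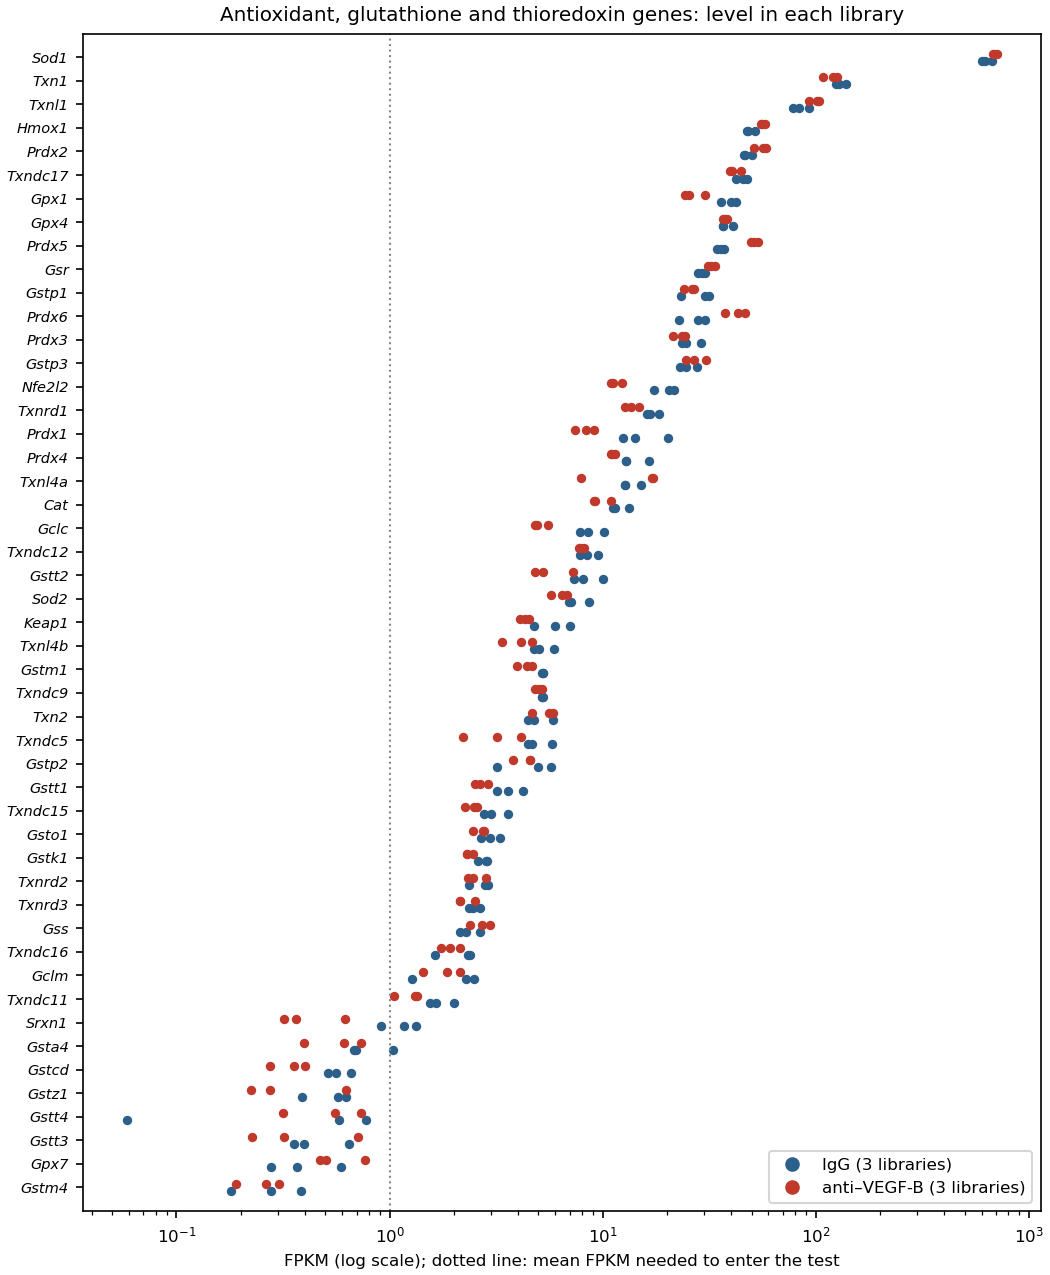
FPKM (x axis, log scale) of each of the 49 members (y axis) in the 6 libraries, ordered by the IgG mean, with each dot 1 library. Sod1 sits alone at the right, between 600 and 710 FPKM, and the 8 lowest members, around or left of the dotted line at 1 FPKM, were not tested.

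Among the regulators, Nfe2l2 fell and its inhibitor did not pass the test. Nfe2l2 (chromosome 2 of GRCm38, 75675513 to 75704641), which encodes NRF2, was at 12.4, 11.2 and 10.9 FPKM with anti–VEGF-B and at 21.7, 20.5 and 17.5 with IgG. The highest anti–VEGF-B library was thus well under the lowest IgG library. The mean fell by 42.1%, from 19.9 ± 2.15 to 11.5 ± 0.779 FPKM (SD, n = 3 each). limma gave a log2 fold change of -0.74 (SE 0.0985, limma adjusted p = 0.00488), or -0.58 after the median gene is subtracted. Without IgG replicate 3, the library with the highest myeloid markers, it was -0.82 (limma adjusted p = 0.00723, range over all settings 0.00390 to 0.0696).

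Keap1 (chromosome 9, 21229730 to 21239361) encodes the adaptor that targets NRF2 for degradation. It was at 4.10, 4.31 and 4.50 FPKM with anti–VEGF-B and at 5.96, 7.04 and 4.76 with IgG. The groups did not overlap, but IgG replicate 3 was close to the anti–VEGF-B libraries. The log2 fold change was -0.37 (95% interval -0.66 to -0.08, limma adjusted p = 0.0561), and Keap1 was not called. Without IgG replicate 3 it was -0.50 (limma adjusted p = 0.0277, range over all settings 0.0277 to 0.294). Within a library, the ratio of Nfe2l2 to Keap1 averaged 2.68 ± 0.306 (anti–VEGF-B) and 3.41 ± 0.430 (IgG, SD, n = 3 each), with overlapping groups.

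Hmox1, the gene of the inducible heme oxygenase and a known NRF2 target, was not called. It was at 55.4, 57.7 and 56.2 FPKM with anti–VEGF-B and at 52.0, 47.6 and 47.9 with IgG. All 3 anti–VEGF-B libraries lay above the IgG libraries, by a small margin. The log2 fold change was 0.20 (95% interval 0.04 to 0.35, limma adjusted p = 0.0626). It passed after median centring (0.40, limma adjusted p = 0.0168) and without IgG replicate 1 (0.24, limma adjusted p = 0.0474, range over all settings 0.0168 to 0.157).

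Glutathione synthesis starts with glutamate-cysteine ligase, the rate-limiting enzyme, which has a catalytic subunit (Gclc) and a modifier subunit (Gclm). Gclc (chromosome 9, 77754535 to 77794485) was at 4.83, 5.54 and 4.91 FPKM with anti–VEGF-B and at 8.52, 10.1 and 7.84 with IgG, without overlap. The mean fell by 42.3%, from 8.83 ± 1.17 to 5.09 ± 0.391 FPKM (SD, n = 3 each). On the log2 scale the change was -0.68 (SE 0.111, limma adjusted p = 0.00657), or -0.53 relative to all genes.

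Gclm (chromosome 3, 122245557 to 122270732) was low, at 1.87, 2.14 and 1.43 FPKM with anti–VEGF-B and 2.48, 1.27 and 2.29 with IgG. The lowest of the 6 values was IgG replicate 2, and the groups overlapped. The log2 fold change of -0.08 had a 95% interval from -0.47 to 0.30 (limma adjusted p = 0.730), and it was above 0 after quantile normalization (0.14) and median centring (0.12). A fall of Gclm as large as 0.47 on the log2 scale therefore remains within the interval.

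Gss, the gene of glutathione synthetase, which completes the tripeptide, was at 2.95, 2.39 and 2.71 FPKM with anti–VEGF-B and 2.28, 2.66 and 2.14 with IgG, with overlap (log2 fold change 0.13, limma adjusted p = 0.379). It passed the test as higher after quantile normalization (0.37, limma adjusted p = 0.0282) and median centring (0.33, limma adjusted p = 0.0356), range over all settings 0.0282 to 0.667. Gsr, the gene of the reductase that regenerates glutathione, was at 31.3, 32.4 and 33.5 FPKM with anti–VEGF-B and 28.1, 30.1 and 29.3 with IgG. Its groups did not overlap, but the log2 fold change of 0.15 did not pass (limma adjusted p = 0.142), except after median centring (0.35, limma adjusted p = 0.0146, range over all settings 0.0146 to 0.342).

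In the ratio of 2 genes within a library, any single factor applied to the FPKM of that library cancels, whereas quantile normalization can change it. Gclc exceeded Gss 1.64, 2.32 and 1.81 times with anti–VEGF-B and 3.73, 3.80 and 3.66 times with IgG. The IgG ratios were close to each other (3.73 ± 0.0696, SD, n = 3) and lay far above the anti–VEGF-B ratios (1.92 ± 0.353). The ratio of Gclc to Gclm, 2.87 ± 0.485 with anti–VEGF-B and 4.93 ± 2.60 with IgG, overlapped between the groups. The ratios given here and for other pairs were picked after the values were seen and were not tested.

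Of the glutathione peroxidases, Gpx1 fell and Gpx4 did not pass the test. Gpx1 (chromosome 9, 108338903 to 108340343), a selenoprotein that reduces soluble peroxides, was at 30.3, 24.3 and 25.3 FPKM with anti–VEGF-B and 42.3, 39.9 and 36.0 with IgG. The mean fell by 32.3%, from 39.4 ± 3.21 to 26.7 ± 3.22 FPKM (SD, n = 3 each). On the log2 scale this was -0.55 (SE 0.101, limma adjusted p = 0.00861).

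Gpx4 (chromosome 10, 80047166 to 80056439), a selenoprotein that reduces lipid peroxides in membranes and protects cells from ferroptosis, was at 36.9, 37.4 and 38.1 FPKM with anti–VEGF-B and 36.7, 40.8 and 36.9 with IgG. The values nearly coincided. The log2 fold change was -0.02 with a 95% interval from -0.19 to 0.14 (limma adjusted p = 0.827), and it was above 0 after quantile normalization (0.023), median centring (0.18) and scaling to Actb (0.043). Within a library Gpx1 stood at 0.823, 0.651 and 0.664 times Gpx4 with anti–VEGF-B and at 1.15, 0.976 and 0.975 times with IgG, without overlap. Gpx7, an enzyme of the endoplasmic reticulum, was at 0.276 to 0.766 FPKM over the 6 libraries and was not tested.

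Of 6 peroxiredoxins tested, Prdx1 fell, Prdx5 and Prdx6 rose, and Prdx2, Prdx3 and Prdx4 did not pass. That is 16.7% lower and 33.3% higher, against 23.8% and 4.87% of all genes, in a group of few genes. Prdx1 (chromosome 4, 116685544 to 116700822), a cytosolic 2-Cys peroxiredoxin, was at 9.09, 8.35 and 7.46 FPKM with anti–VEGF-B and 20.4, 14.3 and 12.4 with IgG. By mean FPKM it ranked 2844th of all genes listed, the lowest of the 6 peroxiredoxins tested. IgG replicate 1 stood above the other IgG libraries, and all 3 were above the anti–VEGF-B libraries. The mean fell by 47.0%, from 15.7 ± 4.17 to 8.30 ± 0.818 FPKM (SD, n = 3 each). Its log2 fold change of -0.82 was the lowest of the 41 members (SE 0.160, limma adjusted p = 0.00999), and it ran from -0.96 to -0.62 over the alternatives.

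Prdx6 (chromosome 1, 161240112 to 161251219), the 1-Cys peroxiredoxin that also has phospholipase activity and can reduce phospholipid hydroperoxides, was at 37.4, 43.0 and 46.8 FPKM with anti–VEGF-B and 30.2, 22.9 and 28.1 with IgG. The groups did not overlap. The mean rose by 56.7%, from 27.1 ± 3.77 to 42.4 ± 4.76 FPKM (SD, n = 3 each), a log2 fold change of 0.63 (SE 0.118, limma adjusted p = 0.00876). It was the highest of the 41 members, at 0.78 relative to the median of all genes.

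Prdx5 (chromosome 19, 6906697 to 6910106), an atypical 2-Cys peroxiredoxin of mitochondria, peroxisomes and cytosol, was at 49.7, 51.1 and 53.5 FPKM with anti–VEGF-B and 34.4, 36.0 and 37.1 with IgG. Each group was tight and stood apart from the other. The mean rose by 43.5%, from 35.8 ± 1.34 to 51.4 ± 1.91 FPKM (SD, n = 3 each). limma put the log2 fold change at 0.51 (SE 0.0707, limma adjusted p = 0.00491).

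Prdx2 (chromosome 8, 84969587 to 84974834), the other cytosolic 2-Cys peroxiredoxin, was at 58.4, 51.5 and 56.5 FPKM with anti–VEGF-B and 50.1, 46.6 and 46.1 with IgG. The groups did not overlap, yet the log2 fold change of 0.22 (95% interval 0.04 to 0.39) did not pass (limma adjusted p = 0.0621). It did so after median centring (0.42, limma adjusted p = 0.0177, range over all settings 0.0177 to 0.169). Prdx1 stood at 0.156, 0.162 and 0.132 times Prdx2 with anti–VEGF-B and at 0.407, 0.306 and 0.269 times with IgG. The ratio of Prdx1 to Prdx6 averaged 0.199 ± 0.0422 (anti–VEGF-B) and 0.580 ± 0.122 (IgG), and that of Prdx1 to Prdx5 was 0.162 ± 0.0218 and 0.441 ± 0.134 (SD, n = 3 each). None of these 3 ratios overlapped between the groups. This follows from the single genes: in each anti–VEGF-B library Prdx1 lay below all its IgG values, and Prdx2, Prdx5 and Prdx6 above theirs.

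Prdx3 and Prdx4 did not pass. Prdx3, the mitochondrial member, was at 23.7, 21.5 and 24.4 FPKM with anti–VEGF-B and 29.0, 23.7 and 24.5 with IgG, with overlap (log2 fold change -0.14, limma adjusted p = 0.285, but 0.062 after median centring). Prdx4, the member of the endoplasmic reticulum, was at 11.4, 11.0 and 11.0 FPKM with anti–VEGF-B and 12.9, 16.5 and 12.9 with IgG. Its groups did not overlap, and its log2 fold change was -0.31 (95% interval -0.55 to -0.07, limma adjusted p = 0.0541).

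Srxn1 (chromosome 2, 152105516 to 152111376) encodes sulfiredoxin, which repairs overoxidized 2-Cys peroxiredoxins and is a known NRF2 target. Its mean was under 1 FPKM, and it was tested only in the fit of all 10995 genes. It was at 0.319, 0.621 and 0.365 FPKM with anti–VEGF-B and 1.17, 1.33 and 0.913 with IgG, without overlap. In that fit it fell, with a log2 fold change of -0.58 (limma adjusted p = 0.0141), and of -1.24 with a pseudocount of 0.1. When anti–VEGF-B replicate 3 was left out it was not called (-0.55, limma adjusted p = 0.0576, range over all settings 0.0141 to 0.0894).

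**Figure D3:**
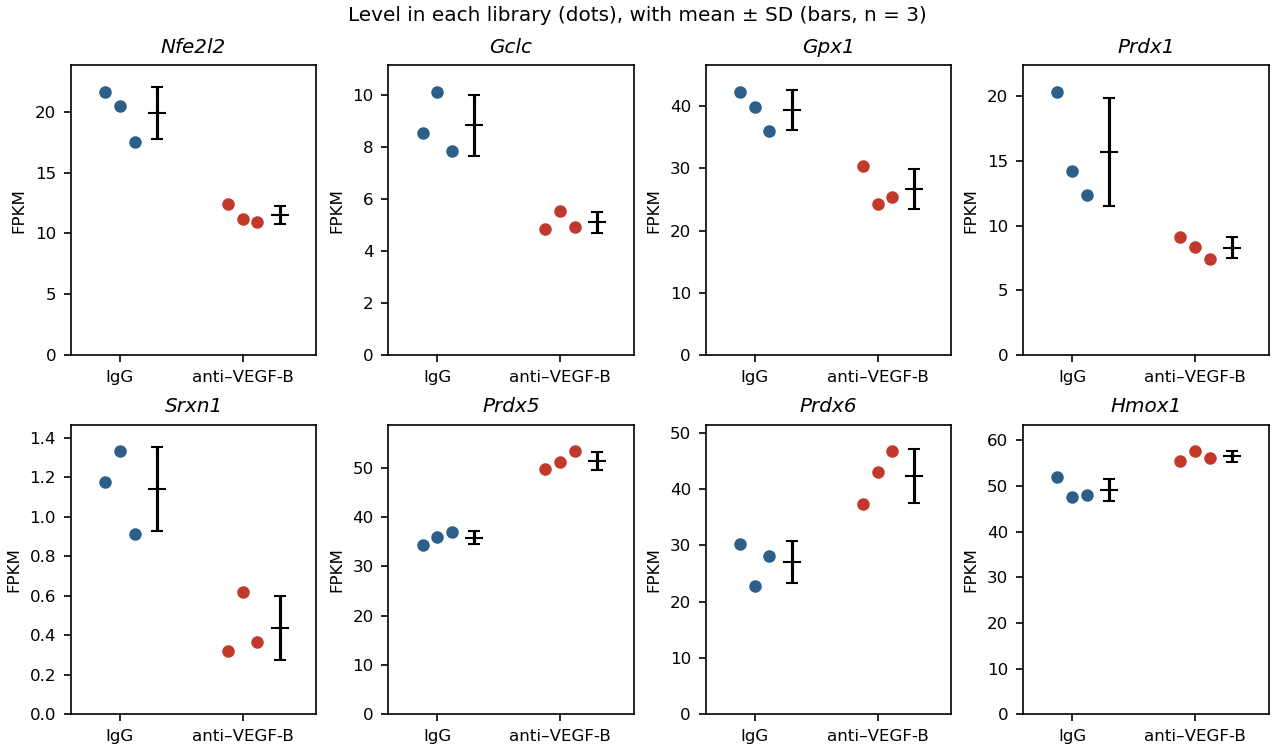
FPKM (y axes, each from 0) of 8 members in the 3 IgG and 3 anti–VEGF-B libraries, with each dot 1 library in the order of its replicate number and bars giving mean ± SD (n = 3). Nfe2l2, Gclc, Gpx1, Prdx1 and Srxn1 are lower in each anti–VEGF-B library than in each IgG library, and Prdx5, Prdx6 and Hmox1 are higher, though Hmox1 was not called (limma adjusted p = 0.0626).

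**Figure D4:**
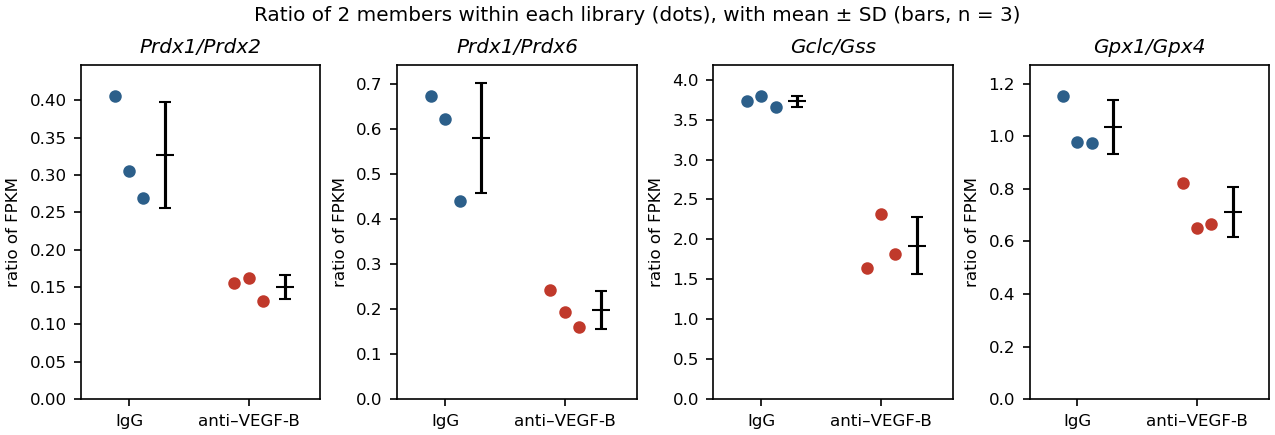
Ratio of the FPKM of 2 members within each library (y axes, each from 0), with each dot 1 library and bars giving mean ± SD (n = 3). The 4 ratios are lower in each anti–VEGF-B library than in each IgG library, and the 3 IgG ratios of Gclc to Gss lie between 3.66 and 3.80. For the ratios with Prdx1 the separation follows from the values of the single genes.

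The thioredoxin system is the electron source of the 2-Cys peroxiredoxins. Txn1 was at 126, 108 and 120 FPKM with anti–VEGF-B and 139, 129 and 125 with IgG, with overlap. Its log2 fold change of -0.15 was that of the median gene to 2 decimals (95% interval -0.33 to 0.04, limma adjusted p = 0.188), and it was 0.051 after median centring. Txn2, mitochondrial thioredoxin, was at 5.85, 5.62 and 4.68 FPKM with anti–VEGF-B and 4.79, 5.85 and 4.48 with IgG, with overlap (log2 fold change 0.08, limma adjusted p = 0.628).

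Txnrd1 (chromosome 10, 82833951 to 82897712), the cytosolic thioredoxin reductase and a selenoprotein, was at 13.6, 14.8 and 12.7 FPKM with anti–VEGF-B and 18.3, 16.2 and 16.6 with IgG. The groups did not overlap, and the mean fell by 19.6%, from 17.0 ± 1.13 to 13.7 ± 1.07 FPKM (SD, n = 3 each). This was -0.30 on the log2 scale (SE 0.0893, limma adjusted p = 0.0372), or -0.14 relative to all genes. It did not pass after quantile normalization (-0.17), median centring (-0.094) or scaling to Actb (-0.23), where the adjusted p was 0.219, 0.506 and 0.184. It was not called without anti–VEGF-B replicate 1 (limma adjusted p = 0.0851) or 3 (0.135), or without IgG replicate 1 (0.0914), 2 (0.0544) or 3 (0.0708), range over all settings 0.0372 to 0.506.

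Txnrd2, the mitochondrial reductase, was at 2.83, 2.45 and 2.34 FPKM with anti–VEGF-B and 2.79, 2.89 and 2.37 with IgG, with overlap (log2 fold change -0.06, limma adjusted p = 0.717, but 0.19 after quantile normalization and 0.15 after median centring). Txnrd3, the third reductase gene, had a log2 fold change of -0.09 (limma adjusted p = 0.495), and it ran from -0.15 to 0.15 over all settings.

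Other genes whose names start with Txn encode proteins with a thioredoxin fold that do not all act on peroxides. Txndc5 (chromosome 13, 38500079 to 38528824), a protein disulfide isomerase of the endoplasmic reticulum, was at 2.22, 4.12 and 3.18 FPKM with anti–VEGF-B and 4.64, 5.78 and 4.45 with IgG. The groups lay apart, with anti–VEGF-B replicate 2 near the IgG libraries. Txndc5 fell from 4.95 ± 0.721 to 3.17 ± 0.953 FPKM (SD, n = 3 each), a log2 fold change of -0.53 (SE 0.169, limma adjusted p = 0.0431). It did not pass after any of the 3 other scalings (adjusted p from 0.0895 to 0.166). The call was also lost without anti–VEGF-B replicate 1 (limma adjusted p = 0.116) or 3 (0.0981), or without IgG replicate 1 (0.0658), 2 (0.126) or 3 (0.0596), range over all settings 0.0222 to 0.166.

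The other members of this kind were not called. Txndc9, Txndc11, Txndc12, Txndc15, Txndc16, Txndc17, Txnl1, Txnl4a and Txnl4b had log2 fold changes from -0.31 (Txnl4b) to 0.23 (Txnl1), and the direction turned under at least 1 setting for Txndc9, Txndc12, Txndc16, Txndc17 and Txnl4a. Txnl4a, which encodes a component of the spliceosome, had 7.93, 17.1 and 17.2 FPKM with anti–VEGF-B and 15.2, 12.7 and 12.7 with IgG. Anti–VEGF-B replicate 1 was the lowest of the 6, and the spread gave the widest interval of the 41 members (-0.56 to 0.53). Txnl1 was at 101, 93.5 and 104 FPKM with anti–VEGF-B and 93.1, 78.4 and 83.1 with IgG, and did not pass (limma adjusted p = 0.0676). Without IgG replicate 1 it was called, at 0.30 (limma adjusted p = 0.0324, range over all settings 0.0280 to 0.201).

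Superoxide dismutases and catalase did not pass. Sod1 was at 689, 680 and 710 FPKM with anti–VEGF-B and 673, 600 and 626 with IgG, and the groups did not overlap (log2 fold change 0.13, 95% interval -0.04 to 0.30, limma adjusted p = 0.209, but -0.019 after quantile normalization). Sod2, the manganese enzyme of the mitochondrial matrix, was at 6.80, 5.72 and 6.46 FPKM with anti–VEGF-B and 7.08, 8.60 and 6.92 with IgG (log2 fold change -0.22, limma adjusted p = 0.158). Cat, the peroxisomal catalase, was at 10.9, 9.07 and 9.17 FPKM with anti–VEGF-B and 11.2, 13.3 and 11.4 with IgG (log2 fold change -0.27, 95% interval -0.51 to -0.04, limma adjusted p = 0.0751). The groups did not overlap for Sod2 or Cat either.

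Glutathione S-transferases conjugate glutathione to reactive compounds. Of 14 members 8 were tested, and only Gstt2 was called (12.5% lower, against 23.8% of all genes). Gstt2 (chromosome 10, 75831114 to 75837424), of the theta class, was at 7.29, 4.82 and 5.25 FPKM with anti–VEGF-B and 8.08, 10.0 and 7.37 with IgG. Anti–VEGF-B replicate 1 nearly reached the lowest IgG library. Gstt2 fell from 8.48 ± 1.36 to 5.79 ± 1.32 FPKM (SD, n = 3 each), a log2 fold change of -0.49 (SE 0.153, limma adjusted p = 0.0406). Gstt2 was not called after quantile normalization (limma adjusted p = 0.144) or median centring (0.148), without anti–VEGF-B replicate 2 (0.118) or 3 (0.123), or without IgG replicate 1 (0.0656) or 2 (0.121), range over all settings 0.0245 to 0.159.

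Gstt1, also on chromosome 10 (75783813 to 75798584), was at 2.91, 2.52 and 2.67 FPKM with anti–VEGF-B and 3.20, 4.22 and 3.58 with IgG, without overlap. The log2 fold change was -0.33 (limma adjusted p = 0.0531), and -0.41 without IgG replicate 1 (limma adjusted p = 0.0371, range over all settings 0.0371 to 0.457). Gstm1, Gstk1, Gsto1, Gstp1, Gstp2 and Gstp3 had log2 fold changes from -0.22 (Gstm1) to 0.12 (Gstp3) and were not called, and the direction turned under at least 1 setting for Gstk1, Gsto1, Gstp1 and Gstp2. The Gstp genes lie side by side on chromosome 19 and are so similar that reads could have been split among them, so their single values are uncertain. Gstp1 ran from 23.4 to 31.5 FPKM and Gstp3 from 23.0 to 30.7 over the 6 libraries. Gstcd, Gsta4, Gstm4, Gstt3, Gstt4 and Gstz1 were too low to be tested, with values from 0.0585 to 1.03 FPKM.

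**Figure D5:**
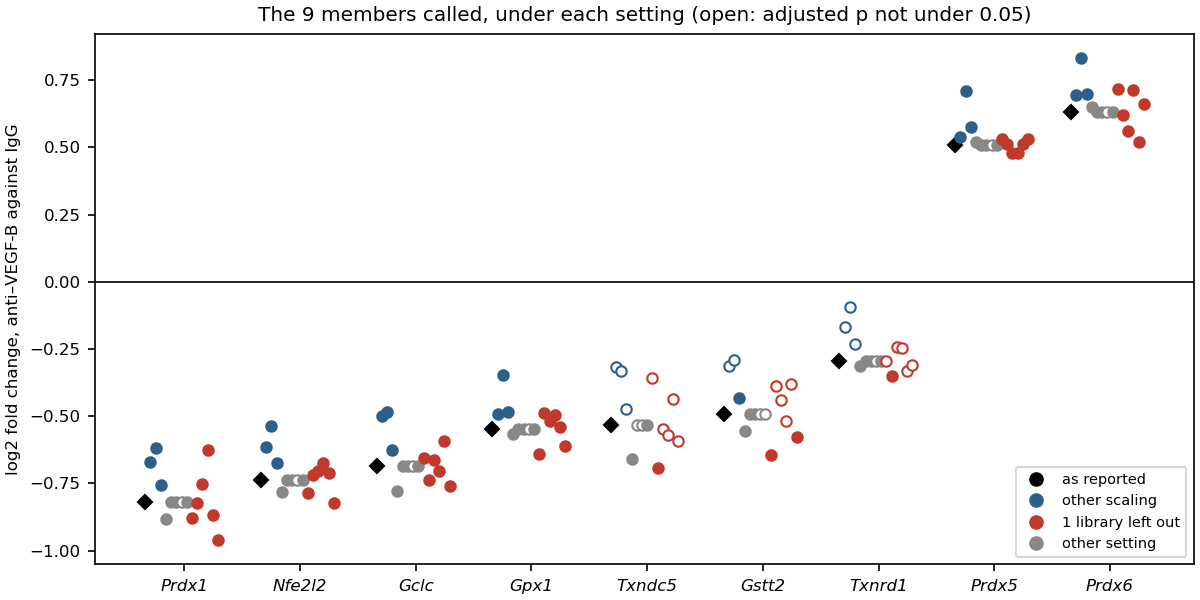
log2 fold change (y axis) of the 9 called members (x axis) as reported (diamonds), under 3 other scalings between libraries, with 1 library left out, and under the other settings. Filled points have an adjusted p under 0.05. Prdx1, Nfe2l2, Gclc, Gpx1, Prdx5 and Prdx6 have 1 open point each, from the fit with no moderation of the variance, while Txnrd1, Txndc5 and Gstt2 have several.

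Genes that feed or flank these systems but fall outside the naming rule were described from a list of 74, of which 66 were in the table and 58 tested. Of these, 12 were lower (20.7%, against 23.8% of all genes) and 3 higher (5.17%, against 4.87%), and the median log2 fold change was -0.10. After median centring, 5 were lower and 12 higher (807 and 1365 over all genes). Over the fits that left out 1 library, between 5 and 12 were lower and between 1 and 4 higher, with 5 lower without anti–VEGF-B replicate 3. Over all genes these fits gave 695 to 2071 lower and 164 to 396 higher, with 695 lower without anti–VEGF-B replicate 3. The number higher was 1 without anti–VEGF-B replicate 1 or 2, or without IgG replicate 2 or 3.

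Among these genes Txnip, which encodes an inhibitor of thioredoxin that also limits glucose uptake, had the lowest p. It was at 27.5, 16.1 and 19.4 FPKM with anti–VEGF-B and 65.0, 82.4 and 48.5 with IgG (log2 fold change -1.59, limma adjusted p = 0.00488). Sesn2 was at 15.5, 16.1 and 12.9 FPKM with anti–VEGF-B and 24.3, 28.6 and 21.8 with IgG. Both groups of Txnip and of Sesn2 stood apart. Sesn2 and Sesn1, sestrins that restrain mTORC1 and are linked to peroxide defense, fell by 0.70 and 0.41 on the log2 scale (limma adjusted p = 0.00711 and 0.0160). Sesn1 did not pass under any of the 3 other scalings (adjusted p from 0.0551 to 0.115) or without anti–VEGF-B replicate 3 (0.0675).

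Selenium has to be built into Gpx1, Gpx4 and the thioredoxin reductases. Sephs2, which makes the selenium donor for that step, was at 1.51, 1.52 and 1.56 FPKM with anti–VEGF-B and 2.96, 5.47 and 3.99 with IgG. It fell by 0.99 on the log2 scale (limma adjusted p = 0.00685), without overlap. Of 6 tested genes of selenoprotein synthesis, 2 were lower (Sephs2 and Secisbp2, 33.3% against 23.8% of all genes) and 4 did not pass. Secisbp2 (limma adjusted p = 0.0359) was not called under any of the 3 other scalings (0.0596 to 0.206), or without any 1 library other than IgG replicate 1 (0.0706 to 0.111).

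Of 14 genes that supply NADPH, the source of electrons for both the glutathione and thioredoxin systems, 4 were lower (28.6%, against 23.8% of all genes) and 1 higher (7.14%, against 4.87%), near the background. G6pdx, the entry enzyme of the pentose phosphate pathway, was at 5.51, 4.83 and 4.87 FPKM with anti–VEGF-B and 6.42, 9.79 and 8.54 with IgG (log2 fold change -0.59, limma adjusted p = 0.0161). The isocitrate dehydrogenase gene Idh1 had a log2 fold change of -0.52 (limma adjusted p = 0.0110), and the NAD kinase gene Nadk -0.48 (0.0141). Mthfd1 was the other gene called lower (limma adjusted p = 0.0486), and Me2 the gene called higher (0.0322). After quantile normalization neither was called (0.563 and 0.0613), nor was Mthfd1 without any 1 library other than IgG replicate 3 (0.0892 to 0.145), or Me2 without any 1 other than IgG replicate 1 (0.0561 to 0.123). Without anti–VEGF-B replicate 3, G6pdx (limma adjusted p = 0.0567) and Nadk (0.0509) were not called, and Nadk was not called after quantile normalization (0.0730) or median centring (0.0638).

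Ferritin heavy chain (Fth1), which stores iron in a form that does not react with peroxide, was at 714, 704 and 783 FPKM with anti–VEGF-B and 538, 489 and 540 with IgG. It rose by 0.49 on the log2 scale (limma adjusted p = 0.00690), and the groups did not overlap. Slc3a2, the heavy chain of the cystine importer and of other amino acid transporters, was at 65.4, 59.1 and 54.5 FPKM with anti–VEGF-B and 50.8, 44.7 and 46.5 with IgG (log2 fold change 0.33, limma adjusted p = 0.0257). The call was lost without anti–VEGF-B replicate 1 (limma adjusted p = 0.0781) or 2 (0.0556), or without IgG replicate 2 (0.0775) or 3 (0.0643), range over all settings 0.0117 to 0.101. Slc7a11, on the same list for cystine supply, had no row, so cystine import cannot be read from Slc3a2.

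Mafg, a small Maf protein that pairs with NRF2 on DNA, was at 9.98, 13.0 and 8.96 FPKM with anti–VEGF-B and 15.5, 17.2 and 14.6 with IgG. The log2 fold change was -0.54 (limma adjusted p = 0.0177). The call was lost after median centring (limma adjusted p = 0.0623), without anti–VEGF-B replicate 1 (0.0520) or 3 (0.0622) or without IgG replicate 2 (0.0558), range over all settings 0.0119 to 0.109. Of the 10 tested NRF2 partners and regulators, Mafg was the only one called (10% lower, against 23.8% of all genes). Ncf1, of the NADPH oxidase that makes superoxide, and Cth, which makes cysteine, were the remaining genes called lower (limma adjusted p = 0.0262 and 0.0295). Neither was called under any of the 3 other scalings (0.0523 to 0.239). Ncf1 was not called without any 1 library other than IgG replicate 1 (0.0527 to 0.0809), and Cth was not without replicate 1 or 2 of either group (0.0668 to 0.0914).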

How the data were processed

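Stranded libraries were sequenced, and the authors used hisat2 (genome build GRCm38), StringTie and Ballgown to make the deposited table of protein-coding genes. It carries the name of raw data and no unit, but the deposited values are not whole, so that they were read as FPKM from Ballgown and no count model was used. No scaling between libraries or filter on genes is stated. Whole reads could not be recovered from low values (below 0.3 FPKM, no more than 1.37% had a common ratio between libraries), so depth and counting error are unknown. The 6 value columns carry the names in the labels.

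log2(FPKM + 1) was fitted with limma 3.58.1 (R 4.3.3, empirical Bayes with trend, no covariate) on the 8816 genes whose mean reached 1 FPKM. p values were adjusted over all of them (Benjamini-Hochberg), and intervals are 95%. Members under the filter were taken from the fit of all listed genes. Positions are those of the table, and all 49 symbols matched RefSeq's GRCm38 annotation.

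Values per library are given for each called member and for a fixed set of enzymes and regulators of each system. The other members are given by counts and ranges. Of the flanking genes, the 10 with the lowest p and Txnip were named with values, and other called ones were named after their values were seen. The members, lists and tests were chosen with earlier results of these data known. Alternatives changed the scaling, pseudocount, filter, moderation, replicate block and libraries included.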

Additional observations from a re-analysis of the deposited data

How the results depend on the processing

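Quantile normalization, median centring and scaling to Actb moved the median change over the genes tested from -0.15 to 0.0077, 0.049 and -0.096 on the log2 scale, and that of the members from -0.12 to -0.0099, 0.079 and -0.061. Members lower numbered 4 and 4 after quantile normalization and median centring, and 8 were higher after median centring. Redox genes outside the rule numbered 6, 5 and 7 lower under the 3 scalings, 5 and 12 higher under the first 2 of them, and 6 lower when the minimum mean was 5 FPKM. Over all genes, 913, 807 and 1309 were lower under the 3 scalings, 880 and 1365 higher under the first 2, and 989 lower at that minimum. Leaving out 1 library gave 4 to 6 members lower, 2 to 4 higher, and 5 to 12 and 1 to 4 of the outside genes (695 to 2071 and 164 to 396 over all genes). When the variance was not moderated, 0 members and 0 outside genes passed (lowest adjusted p of a member 0.0693 from limma's fit without moderation). Over all genes, only 6 were then lower and 6 higher. In that fit 9 members lower and 5 higher had an unadjusted p under 0.05. No count over all genes was made to set beside them, so they show nothing particular to the members. Whether the same-numbered libraries were paired is not known. Their deviations from the group means correlated at -0.030, 0.11 and 0.089. Both libraries of replicate 2 and IgG replicate 3 correlated best with their own number, and the rest did not. These values do not settle whether the libraries had a shared origin. With the replicate block 6 members were lower and 4 higher (2109 and 469 over all genes). Gstt2 was lost (adjusted p = 0.0525 from limma), and Prdx2 (0.0476) and Txnl1 (0.0428) were gained.

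Directions turned under at least 1 alternative for 16 of the 41 members, none of them called. Of these, 10 are Txnrd3, Txndc9, Txndc12, Txndc16, Txndc17, Txnl4a, Gstk1, Gsto1, Gstp1 and Gstp2, and the others are Gclm (0.14 after quantile normalization, 0.12 after median centring, 0.017 without anti–VEGF-B replicate 3 and 0.032 without IgG replicate 1, over a range of -0.28 to 0.14), Gpx4 (0.023, 0.18 and 0.043 under the 3 scalings and 0.026 without IgG replicate 2, with -0.050 the lowest when 1 library was left out), Prdx3 (0.062 after median centring), Txn1 (0.051 after median centring), Txnrd2 (0.19 and 0.15 after quantile normalization and median centring) and Sod1 (-0.019 after quantile normalization). The cause was not tested. Depth is unknown for FPKM, so the spread between 3 libraries is the only error given.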
